A study of Homo sapiens with 56 samples.

Results

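The 8 genes examined were the DNA topoisomerase genes TOP1, TOP1MT, TOP2A, TOP2B, TOP3A and TOP3B and the tyrosyl-DNA phosphodiesterase genes TDP1 and TDP2. They were chosen by name and not by a rule on measured values, although earlier results of these data were known. All 8 were among the 59081 gene symbols present in the count tables of both cell lines, and all 8 passed the filter on low counts, which left 20495 genes in Mv4;11 and 18618 in KG-1.

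RNA was sequenced from cultures of Mv4;11 and KG-1. Both are established human cell lines of acute myeloid leukaemia (AML), each grown out from a single patient. Cells received PMR-116 at 1 µM, CX-5461 at 1 µM, or the citric acid and NaH2PO4 buffer that served as the vehicle, and were collected after 3 h or 12 h. The 2 compounds are inhibitors of RNA polymerase I. Each line therefore had 8 groups, namely PMR-116, the vehicle for PMR-116, CX-5461 and the vehicle for CX-5461 at each of the 2 times, with 3 libraries per group in Mv4;11 (24 in all) and 4 per group in KG-1 (32 in all). Mv4;11 carried the label of batch 1 and KG-1 that of batch 2, so line and batch cannot be told apart. The labels do not say whether the replicates were separate cultures, so the p-values measure the spread between these libraries, which may be technical.

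Topoisomerases relieve the twisting and tangling of DNA by cutting it and sealing it again. While the DNA is cut, the enzyme is joined to the DNA end through a tyrosine. Type IB enzymes (TOP1 in the nucleus, TOP1MT in mitochondria) cut a single strand, type II enzymes (TOP2A and TOP2B) cut both strands, and type IA enzymes (TOP3A and TOP3B) pass single strands through one another and act with helicase or RNA-binding partners. TDP1 removes TOP1 that has become trapped on DNA and TDP2 removes trapped TOP2. CX-5461 has been reported to trap type II topoisomerases on DNA, which is why these genes are of interest here. The libraries measure mRNA and give no value for protein, enzyme activity or trapped enzyme.

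Total estimated counts per library were 28751758 to 41542156 in Mv4;11 and 31010072 to 72707757 in KG-1. Of 12 myeloid and progenitor markers, 11 had a mean of at least 1 CPM (counts scaled to a common library size, using TMM) in Mv4;11, all except CD34, and 10 in KG-1, all except KIT and CSF1R. Of the 25 markers of lymphocytes, of erythroid cells and megakaryocytes, and of fibroblast, endothelial and epithelial cells, 6 reached that level in Mv4;11 and 8 in KG-1, while the beta-globin gene HBB and the platelet gene PF4 were at 0 in every library of both lines. In Mv4;11 at 12 h the summed level of the 7 erythroid and megakaryocyte markers went from 4.84 to 6.44 CPM in the vehicle libraries to 13.4 to 18.6 CPM in the treated ones, nearly all of it ITGA2B (an integrin of platelets, up to 17.9 CPM). That of the fibroblast, endothelial and epithelial markers went from 60.4 to 78.7 CPM to 98.7 to 127 CPM, most of it the adhesion gene PECAM1 (up to 116.8 CPM), which myeloid cells also express, while COL3A1 was at 0. In KG-1 the highest means among the 25 markers were those of ITGA2B (571 CPM), PECAM1 (169 CPM) and the lymphocyte markers NKG7 (158 CPM) and CD3D (67.2 CPM). The part of these markers in the results of either line was not tested. 1 Mv4;11 library stood apart, replicate 3 among the 12 h vehicle libraries that belong to PMR-116. Its level of the noncoding RNA MALAT1 was 1126 CPM, of RN7SL2 438 CPM and of the mitochondrial ribosomal RNA MT-RNR1 2607 CPM. The calls of the 8 genes within Mv4;11 that rest on it, and the list counts that change without it, are also given without it. MT-RNR1 moved with treatment in the other libraries too. With PMR-116 in Mv4;11 it lay at 711 to 841 CPM at 3 h and 1166 to 1183 CPM at 12 h, against 248 to 341 and 336 to 365 CPM in the other libraries of its vehicle, and in KG-1 at 704 to 754 and 835 to 1095 CPM against 442 to 501 and 462 to 611 CPM. With CX-5461 at 12 h it lay at 527 to 540 CPM against 320.0 to 337 CPM in Mv4;11 and at 578 to 681 CPM against 449 to 549 CPM in KG-1. Its part in the results was not tested. As a check of the response, CDKN1A (the p21 gene, a brake on the cell cycle) rose against vehicle in each of the 4 Mv4;11 comparisons, by log2 values of 2.03 to 3.44, and in KG-1 passed the test after 12 h of CX-5461 alone (0.96 ± 0.24, SE, adjusted p = 0.0224).

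All 8 genes were expressed in both lines, and TOP2A had the highest mean level per transcript length over the vehicle libraries of each, although in KG-1 only at 12 h. In the 12 Mv4;11 vehicle libraries TOP2A stood at 119.7 ± 7.29 CPM per kb of its principal transcript (mean ± SD), followed by TOP1MT (81.2 ± 7.39), TOP2B (76.9 ± 10.6), TOP1 (61.2 ± 2.87), TDP2 (28.97 ± 1.33), TDP1 (19.4 ± 1.01), TOP3A (16.3 ± 0.88) and TOP3B (13.3 ± 0.89). In that order the ranges of neighbouring genes overlapped between TOP1MT and TOP2B, between TOP2B and TOP1, and between TOP3A and TOP3B. In the 16 KG-1 vehicle libraries the order was TOP2A (78.6 ± 10.5), TOP2B (75.6 ± 4.34), TOP1 (52.5 ± 3.38), TDP2 (24.9 ± 1.72), TDP1 (17.2 ± 1.27), TOP3B (10.6 ± 1.37), TOP3A (8.12 ± 0.82) and TOP1MT (7.68 ± 0.90). There the ranges overlapped between TOP2A and TOP2B, between TOP3B and TOP3A, and between TOP3A and TOP1MT. By time, TOP2B led the KG-1 vehicles at 3 h (75.0 ± 3.13 against 69.8 ± 5.78 for TOP2A, n = 8) and TOP2A at 12 h (87.5 ± 5.01 against 76.3 ± 5.45). TOP1MT ranked second over the Mv4;11 vehicles, though level with TOP2B at 3 h (85.8 and 85.9), and last in KG-1 at both times. The length used for TDP1 was that of its longest principal transcript, 3702 bases, and the shortest has 2068, so its place in the order depends on which transcript is made.

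**Figure D1:**
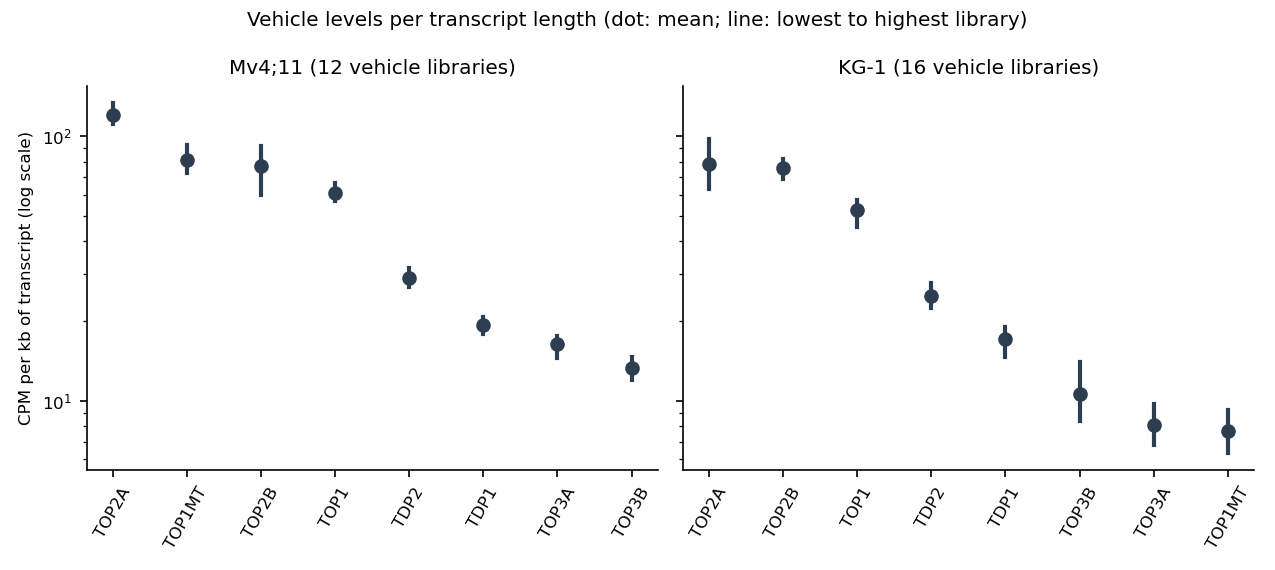
Vehicle level of each gene in CPM per kb of principal transcript (log scale), ordered from high to low within each line; dots are means and lines run from the lowest to the highest of the 12 Mv4;11 or 16 KG-1 vehicle libraries. Over both times TOP2A leads in each line, at 119.7 and 78.6, with ranges that overlap those of TOP2B in KG-1, and TOP1MT stands at 81.2 in Mv4;11 and 7.68 in KG-1.

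Treated libraries were set against the vehicle of the same compound to ask which of these genes respond. In Mv4;11, after 3 h of PMR-116, 3 of the 8 genes rose and 3 fell (24.1% of all genes tested were called at an adjusted p under 0.05, 11.0% higher and 13.1% lower). TOP1, TOP3A and TOP3B rose, TOP2A, TDP1 and TDP2 fell, and TOP1MT and TOP2B did not pass the test. After 3 h of CX-5461, 3 rose and 2 fell (11.7% of all genes called, 5.05% higher and 6.61% lower), the same genes without TDP2. At 12 h of PMR-116, 2 rose (TOP1 and TOP2B) and 3 fell (TOP1MT, TOP2A and TDP1), beside 43.2% of all genes called, 20.7% higher and 22.5% lower. Following 12 h of CX-5461, 1 rose (TOP2B) and 3 fell (TOP2A, TDP1 and TDP2), beside 31.4%, 14.8% higher and 16.5% lower. The median log2 fold change of the 8 genes lay between -0.10 and -0.09 in these 4 comparisons, and that of all genes tested between -0.00057 and 0.04. Their median absolute log2 fold change was 0.32 and 0.24 at 3 h of PMR-116 and CX-5461, against 0.27 and 0.20 for all genes, and 0.23 and 0.16 at 12 h, against 0.40 and 0.31.

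In KG-1 fewer of the genes passed the test. TOP1 alone rose after 3 h of PMR-116 (7.33% of all genes called, 3.61% higher and 3.71% lower), TOP2A alone fell after 3 h of CX-5461 (3.44%, 1.85% higher and 1.58% lower), and TOP1 and TOP2A rose after 12 h of PMR-116 (9.46%, 4.73% higher and 4.74% lower). The fit behind these counts took no account of the replicate numbers. With the number as a block, TOP1MT and TOP3B were called too at 12 h of PMR-116. All genes called there then went from 1762 to 3198. After 12 h of CX-5461 edgeR's quasi-likelihood test called 0 of the 8 (2.54% of all genes called, 1.36% higher and 1.18% lower), 0 of them had an unadjusted p under 0.05, and DESeq2 called 0. The median absolute log2 fold change of the 8 genes in KG-1 was 0.07 to 0.13, against 0.12 to 0.16 for all genes. Comparing the vehicle groups of the compounds with each other gave 0 called genes of all those tested at either time in either line (0.00%; DESeq2 called 0 to 2 of all genes), and 1 of the 8 genes had an unadjusted p under 0.05 in 1 of these 4 comparisons.

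**Figure D2:**
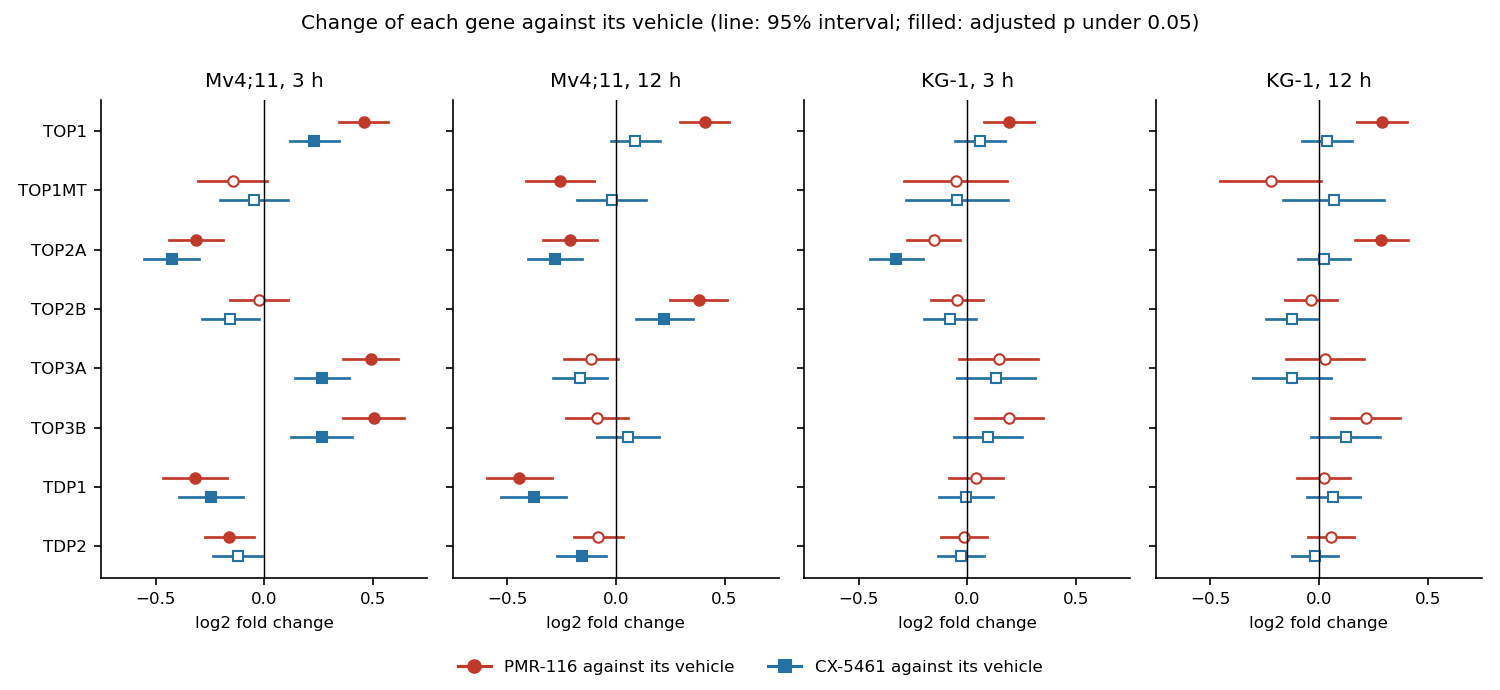
Log2 fold change of each gene against its own vehicle, with its 95% interval, for PMR-116 (circles) and CX-5461 (squares); filled symbols passed an adjusted p under 0.05. In Mv4;11 at 3 h TOP1, TOP3A and TOP3B lie to the right of 0 and TOP2A and TDP1 to the left for both compounds, and at 12 h TOP2B lies to the right; in KG-1 most symbols are open.

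TOP1, the type IB enzyme of the nucleus, is encoded on chromosome 20 (GRCh38, 41028818 to 41124487, plus strand, 21 exons in the principal transcript) and was the gene raised by PMR-116 in all 4 settings. After 3 h in Mv4;11 the PMR-116 libraries stood at 322, 293 and 325 CPM and their vehicle libraries at 249, 215 and 222 CPM. Every treated library was above every vehicle library, a log2 fold change of 0.46 ± 0.06 (SE; 37.2% higher, adjusted p = 3.10e-06, edgeR's quasi-likelihood test, as for every adjusted p below). With CX-5461 the libraries stood at 277, 266 and 265 CPM against 242, 224 and 223 CPM, again without overlap. This was a rise of 0.23 ± 0.06 (adjusted p = 0.00932) that was no longer called without replicate 3 of that vehicle (0.21).

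At 12 h of PMR-116 in Mv4;11 TOP1 stood at 304, 290.3 and 303 CPM against 237, 227 and 212 CPM, a rise of 0.41 ± 0.06 (adjusted p = 2.83e-06; 0.35 without the vehicle library that stood apart). Following 12 h of CX-5461 it stood at 254, 241 and 244 CPM against 232, 233 and 228 CPM. Those groups did not overlap either, but the difference was small (0.09 ± 0.06, adjusted p = 0.260) and was called only with library totals in place of TMM scaling (0.17). In KG-1 the 3 h PMR-116 libraries stood at 228, 224, 221 and 244 CPM against 199.6, 194, 195 and 215 CPM, a rise of 0.19 ± 0.06 (adjusted p = 0.0419). Leaving out any 1 of 7 of these 8 libraries, all but vehicle replicate 4, ended that call, with values of 0.16 to 0.21 then. The 12 h rise in KG-1 was 0.29 ± 0.06 (adjusted p = 0.0016), from 203, 189, 183 and 201 CPM to 246, 234, 229.8 and 238 CPM, and was called in all 15 alternatives. With CX-5461 in KG-1 the TOP1 groups overlapped at both times, with log2 fold changes of 0.06 (95% interval -0.06 to 0.17) at 3 h and 0.04 (-0.08 to 0.15) at 12 h. An antisense gene, PLCG1-AS1, overlaps an exon of TOP1 on the other strand, and the strand setting of the counting is not given in the sources used here.

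**Figure D3:**
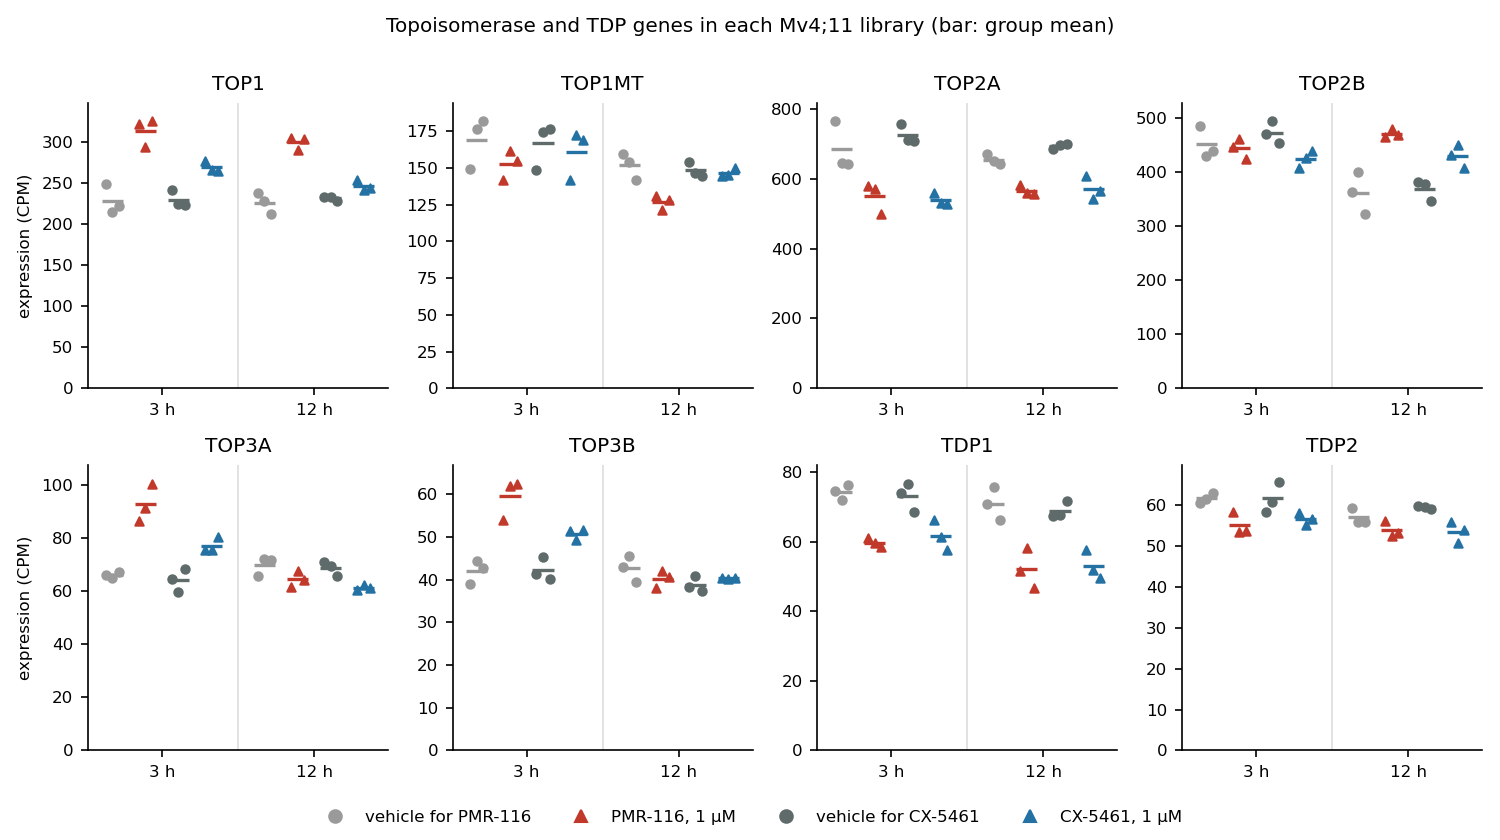
Expression in CPM of each gene in each Mv4;11 library, by time, with 3 libraries per group; circles are vehicle libraries, triangles treated libraries and bars group means. TOP1 under PMR-116 lies between 290.3 and 325 CPM, above all vehicle libraries, and the TOP2B vehicle libraries are lower at 12 h (322 to 401 CPM) than at 3 h (429.6 to 495 CPM).

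TOP1MT, the mitochondrial type IB enzyme (chromosome 8, 143304384 to 143359979, minus strand), fell in Mv4;11 after 12 h of PMR-116. The libraries stood at 131, 122 and 128 CPM against 159, 154 and 141 CPM, without overlap, a log2 fold change of -0.26 ± 0.08 (adjusted p = 0.0118; -0.32 without the vehicle library that stood apart). The call ended without vehicle replicate 1 (-0.22), with library totals (-0.08) and with no filter on low counts (-0.17). After 3 h of PMR-116 the Mv4;11 groups overlapped (142, 162 and 155 CPM against 149.5, 176 and 182 CPM). The log2 fold change of -0.15 was not called, but without vehicle replicate 1 it was (-0.23, adjusted p = 0.0488). With CX-5461 the log2 fold change was -0.05 (95% interval -0.21 to 0.11) at 3 h and -0.02 (-0.18 to 0.14) at 12 h. In KG-1, where TOP1MT lay between 11.1 and 18.3 CPM over all 32 libraries, it passed the test in none of the 4 comparisons. The nearest was 12 h of PMR-116, at -0.22 ± 0.12 (adjusted p = 0.278), with 14.8, 16.95, 11.7 and 13.2 CPM against 17.9, 18.05, 14.1 and 15.99 CPM. With the replicate number as a block in the fit, TOP1MT was called there (-0.23, adjusted p = 0.00943).

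TOP1MT and TOP3A both have roles in maintaining mitochondrial DNA, and 11 other genes of that machinery were examined beside them. After 12 h in Mv4;11, 6 of the 11 fell and 0 rose with PMR-116 (median log2 fold change -0.46, against 0.01 for all genes), and 6 fell and 1 rose with CX-5461 (median -0.37 against 0.04). Of all genes, 22.5% were lower and 20.7% higher with PMR-116, and 16.5% and 14.8% with CX-5461. The largest falls with PMR-116 were SSBP1 (-0.78), which coats single-stranded mitochondrial DNA, the helicase TWNK (-0.77) and TFAM (-0.61), which packages mitochondrial DNA. At 3 h, 5 fell and 1 rose with PMR-116 and 3 fell and 1 rose with CX-5461. The shares of all genes at 3 h were 13.1% lower and 11.0% higher with PMR-116, and 6.61% and 5.05% with CX-5461. The gene that rose at 3 h was POLG, the catalytic subunit of the mitochondrial DNA polymerase (0.52 and 0.47), while POLG2, its accessory subunit, fell (-0.62 and -0.40). In KG-1 the only genes of this list that passed the test were, with PMR-116, POLG at 3 h (0.19) and TFAM (0.33) and POLG (0.27) at 12 h, all higher. Among all genes tested in KG-1, 3.61% and 4.73% were higher with PMR-116 at 3 h and 12 h.

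TOP2A, the type II enzyme of dividing cells (chromosome 17, 40388516 to 40417950, minus strand, 35 exons), fell in Mv4;11 in all 4 comparisons. At 3 h of CX-5461 its libraries stood at 560.1, 531 and 528 CPM against 756, 712 and 707 CPM, a log2 fold change of -0.43 ± 0.06 (25.6% lower, adjusted p = 5.14e-05). Following 3 h of PMR-116 they stood at 579, 570.3 and 500.1 CPM against 765, 645 and 641 CPM, and the log2 fold change was -0.31 ± 0.06 (adjusted p = 0.00072). In both comparisons every treated library was below every vehicle library.

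After 12 h of CX-5461 in Mv4;11 TOP2A stood at 607, 541 and 565 CPM against 685, 696 and 699 CPM (-0.28 ± 0.06, adjusted p = 0.00143). At 12 h of PMR-116 it stood at 581, 559 and 556 CPM against 669, 652 and 642 CPM (-0.21 ± 0.06, adjusted p = 0.00901; -0.24 without the vehicle library that stood apart). The groups did not overlap at either. The last of these calls depended on the scaling, since with library totals the log2 fold change was -0.04 and with no filter on low counts -0.13, neither called. At 12 h in Mv4;11 the median over all genes went from 0.01 to 0.18 (log2) for PMR-116 and from 0.04 to 0.12 for CX-5461 under library totals, and the falls given here are measured against the TMM scale. Under that scaling the 8 genes split into 2 higher and 1 lower for PMR-116, and 2 higher and 2 lower for CX-5461.

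In KG-1 TOP2A fell and rose. Following 3 h of CX-5461 it stood at 338, 316, 348 and 346 CPM against 398, 469.6, 403 and 418 CPM, without overlap (-0.33 ± 0.06, adjusted p = 0.00191). After 3 h of PMR-116 it stood at 315, 336, 365 and 353 CPM against 362, 409, 379 and 375 CPM, where 1 treated library lay within the vehicle range, and the log2 fold change of -0.16 ± 0.06 was not called (adjusted p = 0.137). With both vehicle groups of 3 h pooled, this fall was called (-0.23, adjusted p = 0.00566). The mean level was 342 CPM with PMR-116 and 337 CPM with CX-5461, against 381 and 422 CPM in their own vehicles. At 12 h of PMR-116 TOP2A stood at 591, 579, 683 and 582 CPM against 492, 505, 497 and 502 CPM, all treated libraries above all vehicle libraries, a rise of 0.29 ± 0.06 (adjusted p = 0.00262). Following 12 h of CX-5461 the groups overlapped (509.6, 504, 499 and 553 CPM against 489.6, 462, 520.3 and 562 CPM; 0.02, 95% interval -0.10 to 0.14).

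**Figure D4:**
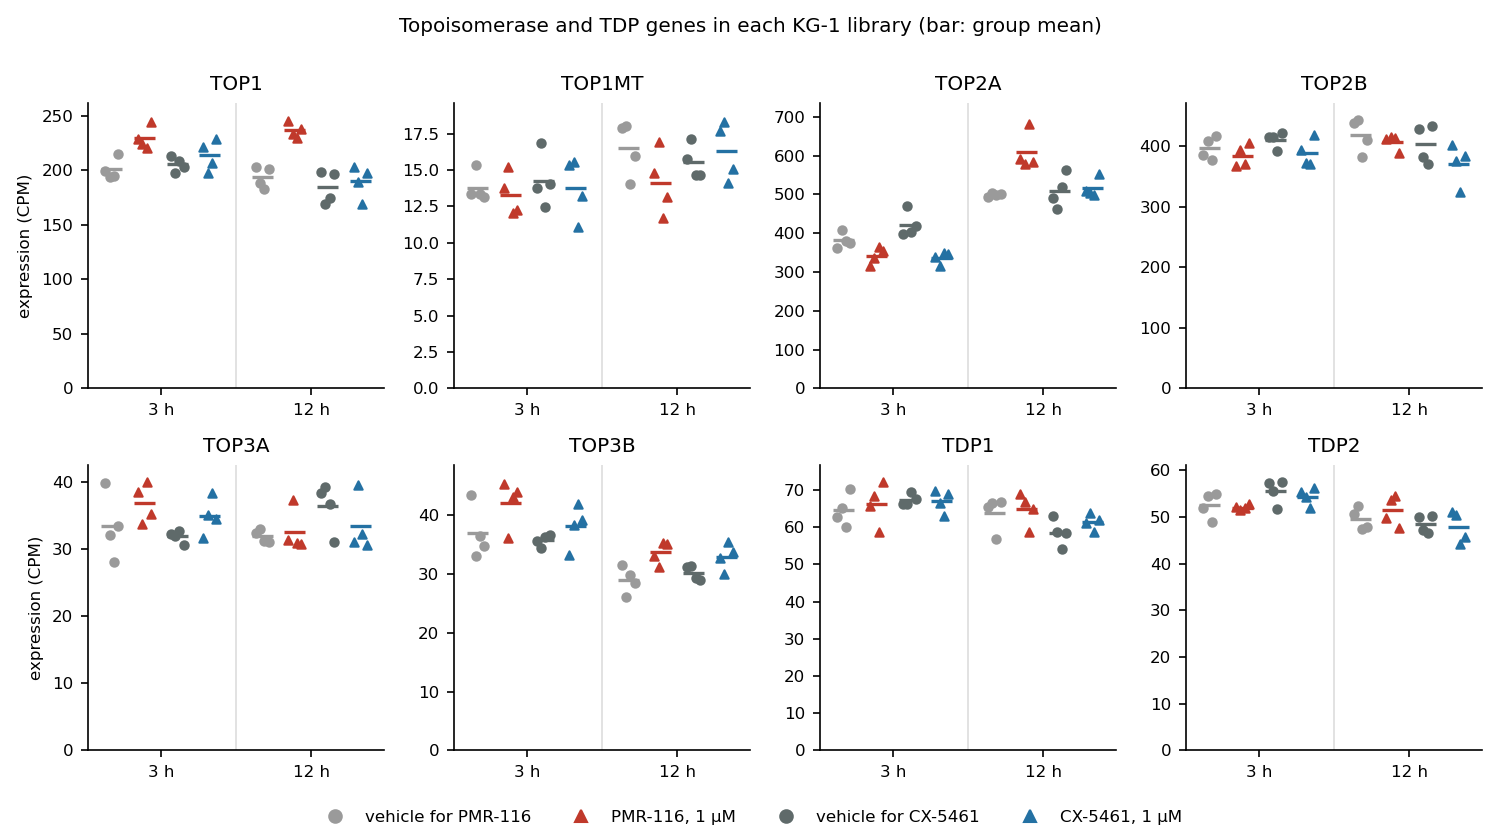
Expression in CPM of each gene in each KG-1 library, by time, with 4 libraries per group; circles are vehicle libraries, triangles treated libraries and bars group means. The TOP2A libraries span 315 to 469.6 CPM at 3 h and 462 to 683 CPM at 12 h, and the 12 h PMR-116 libraries, at 579 to 683 CPM, are the highest of them.

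TOP2A is made mainly in the later cell cycle, so 20 genes of the G2 and M phases were examined beside it. In Mv4;11, 19 of the 20 fell and 0 rose after 3 h of CX-5461 (median log2 fold change -0.61, against -0.00057 for all genes), and 8 fell and 1 rose after 3 h of PMR-116 (median -0.17 against 0.0045). Of all genes, 6.61% were lower and 5.05% higher with CX-5461, and 13.1% and 11.0% with PMR-116. The largest falls with CX-5461 at 3 h were the mitotic kinesins KIF20A (-1.37) and KIF23 (-1.05) and the ubiquitin-conjugating enzyme UBE2C (-0.99), each larger than that of TOP2A (-0.43). With PMR-116 at 3 h UBE2C fell most (-0.67) and the mitotic kinase AURKA rose (0.35). At 12 h, 18 fell and 0 rose with PMR-116 (18 also without the vehicle library that stood apart) and 20 fell with CX-5461, with medians of -0.41 and -0.59. The shares of all genes that were lower at 12 h were 22.5% and 16.5%.

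In KG-1, 5 of the 20 fell after 3 h of CX-5461 and 7 after 12 h, led at both times by KIF20A (-0.48 and -0.65), and TOP2A was called only at the first of these times. Of all genes, 1.58% and 1.18% were lower with CX-5461 at 3 h and 12 h. After 3 h of PMR-116, 0 of the 20 passed edgeR's test after adjustment and 5 had an unadjusted p under 0.05. At 12 h of PMR-116, when TOP2A rose, 2 rose, the spindle motor KIF11 (0.36) and the cyclin CCNA2 (0.23), and 1 fell, KIF20A (-0.28), with a median of 0.04. There 4.73% of all genes were higher and 4.74% lower. The 8 condensin subunits, which fold mitotic chromosomes together with TOP2A, fell at 12 h in Mv4;11 in 7 cases with PMR-116 (median -0.77) and in 8 with CX-5461 (median -0.64). Beside them, 22.5% and 16.5% of all genes were lower. At 3 h in Mv4;11 only SMC4 fell with PMR-116 (-0.40), and NCAPG (-0.33), SMC4 (-0.28) and NCAPD2 (-0.20) with CX-5461. The shares of all genes lower at 3 h were 13.1% with PMR-116 and 6.61% with CX-5461. In KG-1 NCAPD2 alone passed the test, at 12 h, lower with PMR-116 (-0.24) and with CX-5461 (-0.21).

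**Figure D5:**
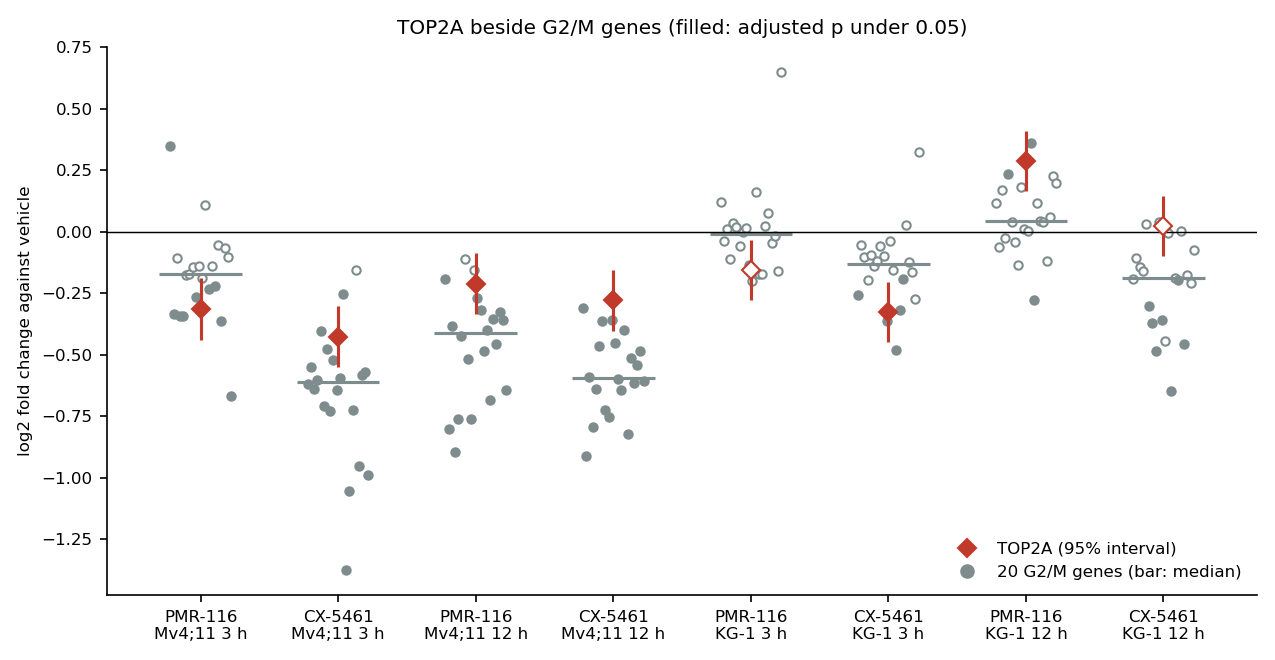
Log2 fold change of TOP2A (diamonds, with 95% interval) beside 20 G2/M genes (dots; bar at their median) in the 8 comparisons against vehicle; filled symbols passed an adjusted p under 0.05. In Mv4;11 TOP2A lies below 0 with most of these genes, and in KG-1 at 12 h of PMR-116 it lies at 0.29 while their median is 0.04.

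The sequences upstream of TOP2A, TOP2B and TOP1 are shown because these genes moved differently from one another, and because CCAAT boxes and cell cycle homology regions (CHR) are the elements through which promoters of G2/M genes are usually described. They are taken from RefSeq on GRCh38.p14, read 5′ to 3′ toward the gene and end just before the start of the gene in GENCODE. Capitals mark the CCAAT box, with letters CCAAT or, where it lies on the other strand, ATTGG, and the CHR, with letters TTTGAA or, where that lies on the other strand, TTCAAA, and no marked match overlaps another. TOP2A (chr17:40417951-40418146, minus strand) holds 3 CCAAT and 2 TTTGAA matches, TOP2B (chr3:25664908-25665157, minus strand) holds 2 and 1, and TOP1 (chr20:41028572-41028817, plus strand) holds 0 of either. The TOP2B stretch overlaps the annotated microRNA gene MIR4442. RefSeq gives TOP2B a further start inside the gene, and the 250 bases before it (chr3:25664373-25664622) hold 0 matches of either kind.
TOP2A: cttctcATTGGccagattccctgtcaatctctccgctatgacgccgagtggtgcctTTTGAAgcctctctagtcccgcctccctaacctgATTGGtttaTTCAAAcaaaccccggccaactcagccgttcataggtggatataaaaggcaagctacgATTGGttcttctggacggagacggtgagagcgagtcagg
TOP2B: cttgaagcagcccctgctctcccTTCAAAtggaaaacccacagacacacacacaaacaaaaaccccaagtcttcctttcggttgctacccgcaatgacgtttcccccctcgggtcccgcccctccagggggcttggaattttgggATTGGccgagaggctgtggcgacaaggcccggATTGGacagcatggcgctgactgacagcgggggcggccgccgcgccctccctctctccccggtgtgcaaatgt
TOP1: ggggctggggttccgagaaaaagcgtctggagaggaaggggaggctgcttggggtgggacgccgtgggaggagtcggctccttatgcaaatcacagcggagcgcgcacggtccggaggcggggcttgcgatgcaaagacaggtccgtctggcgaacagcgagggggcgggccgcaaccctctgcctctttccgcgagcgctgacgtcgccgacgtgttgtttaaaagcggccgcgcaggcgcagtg

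Over the full 250 bases before the RefSeq start, TOP2A held 4 CCAAT matches, as did or exceeded 0.874% of the 35116 such windows of all genes, and 2 TTTGAA matches, reached by 1.72%. At least 1 CCAAT match was found in 32.01% of all windows and at least 1 TTTGAA match in 13.3%. Of the 20 G2/M genes 16 had a window, and 15 of these held CCAAT and 9 held TTTGAA in at least 1 of their windows. A gene can have more than 1 window, so these counts per gene are not the same measure as the shares of windows. These are matches of letters and are not shown to be bound sites.

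TOP2B, the type II enzyme also made in cells that do not divide (chromosome 3, 25597905 to 25664907, minus strand, 36 exons), stood higher than its vehicle at 12 h in Mv4;11. With PMR-116 its libraries stood at 465, 479.8 and 470.0 CPM against 364, 401 and 322 CPM, without overlap, a log2 fold change of 0.38 ± 0.07 (30.2% higher, adjusted p = 5.42e-05; 0.29 without the vehicle library that stood apart, which held the lowest of these values). With CX-5461 they stood at 431, 451 and 408 CPM against 382, 378 and 346 CPM (0.22 ± 0.07, adjusted p = 0.0128), a call that ended without vehicle replicate 3 (0.16), treated replicate 1 (0.19) or treated replicate 2 (0.17). At 3 h the PMR-116 groups overlapped, at 448, 462 and 425 CPM against 487, 429.6 and 439.9 CPM (-0.02, 95% interval -0.16 to 0.11). At 3 h of CX-5461 the libraries stood at 408, 427 and 439.5 CPM, all below the 471, 495 and 455 CPM of their vehicle, but the log2 fold change of -0.16 ± 0.07 was not called (adjusted p = 0.143).

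The vehicle libraries themselves moved with time. In Mv4;11 the 6 vehicle libraries of 3 h lay between 429.6 and 495 CPM of TOP2B and the 6 of 12 h between 322 and 401 CPM, a log2 difference of -0.34 ± 0.05 over both vehicle groups (adjusted p = 8.25e-05, and -0.29 without the library that stood apart; 12.9% of all genes called; a comparison added after seeing the data). The treated libraries of 12 h, at 408 to 479.8 CPM, lay in the range of the treated libraries of 3 h, at 408 to 462 CPM, or above it. TOP2B was the only one of the 8 genes called in that comparison. In KG-1 TOP2B passed the test in none of the comparisons against vehicle, with log2 fold changes from -0.12 to -0.04, and its vehicle libraries did not differ between the times beyond their spread (0.02 ± 0.04, adjusted p = 0.720). An exon of RARB lies over an exon of TOP2B on the other strand.

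The cohesin subunits and the boundary factor CTCF, beside which TOP2B is found at chromatin loops, were examined as a list of 11 genes. At 12 h in Mv4;11, when TOP2B was higher, 6 fell and 1 rose with PMR-116 (median -0.23) and 7 fell and 1 rose with CX-5461 (median -0.28). The falls were led by the cohesin subunit SMC1A with both compounds (-0.88 and -0.68). The gene that rose with PMR-116 was NIPBL, which loads cohesin (0.26), and without the vehicle library that stood apart 0 rose and 7 fell (median -0.30). Of all genes, 20.7% were higher and 22.5% lower with PMR-116, and 14.8% and 16.5% with CX-5461. At 3 h in Mv4;11, 2 of the 11 fell with PMR-116 and 3 with CX-5461, and 0 rose with either. Of all genes, 13.1% and 6.61% were lower there. CTCF and SMC3 fell with both compounds (CTCF by log2 values of -0.22 and -0.26). In KG-1 the only such genes called were STAG1, lower with CX-5461 at 3 h (-0.21) and 12 h (-0.25), and STAG2, lower with PMR-116 at 12 h (-0.71). Beside them, 1.58%, 1.18% and 4.74% of all genes were lower in these 3 comparisons.

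TOP3A (chromosome 17, 18271428 to 18315007, minus strand) and TOP3B (chromosome 22, 21957025 to 21982816, minus strand), the type IA enzymes, rose in Mv4;11 at 3 h. With PMR-116 TOP3A stood at 86.5, 91.3 and 100.5 CPM against 66.3, 65.0 and 67.2 CPM (0.49 ± 0.06, 40.3% higher, adjusted p = 4.32e-06). TOP3B stood at 54.1, 61.9 and 62.4 CPM against 38.9, 44.5 and 42.7 CPM (0.50 ± 0.07, 41.7% higher, adjusted p = 1.35e-05). Neither pair of groups overlapped, and these were the largest rises among the 8 genes in the 8 comparisons against vehicle. With CX-5461 TOP3A stood at 75.5, 75.6 and 80.6 CPM against 64.5, 59.7 and 68.5 CPM (0.27 ± 0.06, adjusted p = 0.00638). TOP3B stood at 51.4, 49.2 and 51.6 CPM against 41.2, 45.2 and 40.2 CPM (0.26 ± 0.07, adjusted p = 0.0164), a call that ended without vehicle replicate 1 or 3 or treated replicate 3 (0.23 to 0.26).

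By 12 h in Mv4;11 neither gene was higher. TOP3A stood at 61.7, 67.8 and 64.1 CPM with PMR-116 against 65.6, 72.3 and 71.9 CPM (-0.12 ± 0.06, adjusted p = 0.152), and at 60.4, 62.5 and 61.3 CPM with CX-5461 against 71.2, 69.5 and 65.9 CPM. The CX-5461 groups did not overlap and their log2 fold change of -0.17 ± 0.06 was just outside the threshold (adjusted p = 0.0508); it was called with DESeq2, among other alternatives (-0.18). TOP3B stood at 38.01, 41.95 and 40.6 CPM against 42.9, 45.6 and 39.5 CPM with PMR-116 and at 40.5, 40.1 and 40.4 CPM against 38.2, 40.8 and 37.3 CPM with CX-5461, overlapping in both.

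In KG-1 neither gene passed the test. TOP3B stood at 45.3, 36.2, 43.2 and 44.01 CPM after 3 h of PMR-116 against 43.5, 33.1, 36.5 and 34.8 CPM (0.19 ± 0.08, adjusted p = 0.161; called without vehicle replicate 1, at 0.28), and at 33.1, 31.2, 35.2 and 35.2 CPM after 12 h against 31.6, 26.1, 29.9 and 28.5 CPM (0.21 ± 0.08, adjusted p = 0.0922). The 3 h value of TOP3B was called with both vehicle groups of that time pooled (0.22, adjusted p = 0.0300). The 12 h value of TOP3B was called with the replicate number as a block in the fit (0.22, adjusted p = 0.0332). The TOP3A values lay between -0.12 and 0.14 on the log2 scale over the 4 comparisons. An exon of AC245452.1 lies over an exon of TOP3B on the other strand.

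Among 11 partners of the type IA enzymes, the partners of TOP3A that dissolve linked DNA with it, BLM (-0.91), RMI1 (-0.86) and RMI2 (-0.92), fell with PMR-116 at 12 h in Mv4;11, and fell with CX-5461 too (-0.83, -0.67 and -0.65). In all, 5 of the 11 fell at 12 h with each compound, and 2 rose with PMR-116 and 1 with CX-5461, including PLSCR1 (0.60 and 0.72), beside 22.5% of all genes lower and 20.7% higher with PMR-116, and 16.5% and 14.8% with CX-5461. The median of the 11 was -0.09 with each compound, and -0.19 with PMR-116 without the vehicle library that stood apart. At 3 h in Mv4;11, 2 of the 11 fell and 1 rose with each compound, beside 24.1% and 11.7% of all genes called. TDRD3, which binds TOP3B, fell there with PMR-116 (-0.27) and CX-5461 (-0.32). It fell too in KG-1 with PMR-116 at 3 h (-0.44) and 12 h (-0.28) and with CX-5461 at 12 h (-0.36). In KG-1, 2 of the 11 fell at 3 h and 1 fell and 2 rose at 12 h of PMR-116, beside 7.33% and 9.46% of all genes called. With CX-5461 there, 1 fell and 1 rose at 3 h and 1 fell at 12 h, beside 3.44% and 2.54%. FXR2, an RNA-binding relative of FMR1, rose at 3 h in Mv4;11 with both (0.32 and 0.25).

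TDP1, which frees trapped TOP1 from DNA (chromosome 14, 89954939 to 90044768, plus strand), fell in Mv4;11 in all 4 comparisons. With PMR-116 it stood at 61.0, 59.6 and 58.4 CPM after 3 h against 74.7, 72.1 and 76.4 CPM (-0.32 ± 0.08, adjusted p = 0.00306). After 12 h it stood at 51.4, 58.3 and 46.7 CPM against 70.9, 75.7 and 66.1 CPM (-0.44 ± 0.08, 26.5% lower, adjusted p = 3.87e-05; -0.51 without the vehicle library that stood apart). Following 12 h of CX-5461 it stood at 57.7, 51.8 and 49.6 CPM against 67.4, 67.5 and 71.6 CPM (-0.38 ± 0.08, adjusted p = 0.000436). No treated library overlapped its vehicle group in any of these, and each call was kept in all 13 alternatives.

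After 3 h of CX-5461 TDP1 stood at 66.2, 61.2 and 57.7 CPM against 74.1, 76.7 and 68.6 CPM (-0.24 ± 0.08, adjusted p = 0.0365). That call ended in 6 of 13 alternatives, among them without vehicle replicate 1 or 2 or treated replicate 2 or 3 (-0.23 to -0.20). In KG-1 TDP1 lay between 54.2 and 72.2 CPM in all 32 libraries, the groups overlapped in each comparison, and the log2 fold changes ran from -0.01 to 0.07. The 95% intervals in KG-1 reached no lower than -0.13, while the values in Mv4;11 were -0.24 to -0.44.

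TDP2, which frees trapped TOP2 (chromosome 6, 24649977 to 24667033, minus strand), changed little. At 3 h of PMR-116 in Mv4;11 it stood at 58.4, 53.5 and 53.7 CPM against 60.6, 61.5 and 63.0 CPM (-0.16 ± 0.06, adjusted p = 0.0433), and after 12 h of CX-5461 at 55.8, 50.7 and 53.8 CPM against 59.9, 59.6 and 59.2 CPM (-0.16 ± 0.06, adjusted p = 0.0412). Neither pair of groups overlapped, but both calls were fragile. The first ended in 8 of 13 alternatives, among them the removal of any 1 library other than treated replicate 1, and the second in 7 of 13, among them without vehicle replicate 1 or 2 or treated replicate 2 or 3. In the other 2 Mv4;11 comparisons the log2 fold change was -0.12 (3 h of CX-5461, adjusted p = 0.186) and -0.08 (12 h of PMR-116, adjusted p = 0.272). In KG-1 TDP2 lay between -0.03 and 0.05 on the log2 scale in all 4 comparisons, with 95% intervals between -0.14 and 0.16.

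Of 25 other genes that process trapped topoisomerases, 8 fell and 2 rose after 3 h of PMR-116 in Mv4;11 and 16 fell and 4 rose after 12 h. With CX-5461, 5 fell at 3 h, and 12 fell and 1 rose at 12 h. These counts stand beside 24.1% and 43.2% of all genes called with PMR-116 at 3 h and 12 h, and 11.7% and 31.4% with CX-5461. The medians of the list were -0.06 and -0.25 with PMR-116 and -0.05 and -0.17 with CX-5461. At 3 h the falls were led by the nuclease scaffold SLX4 with PMR-116 (-0.55) and CX-5461 (-0.54), followed by PARP2 (-0.55 and -0.35), and at 12 h by the flap nuclease FEN1 (-1.80 and -1.10) and by RBBP8 (-1.78 and -1.05), which starts end resection with MRE11. MRE11, a nuclease that can cut trapped TOP2 from DNA ends, rose at 12 h with both compounds (0.98 and 0.50). The SUMO ligase ZNF451, which acts with TDP2, rose after 3 h of PMR-116 (0.41), and the nuclease subunit ERCC4 too (0.47). In KG-1 at most 3 of the 25 rose and at most 1 fell in any comparison, beside 2.54% to 9.46% of all genes called. FEN1 was higher there at 3 h with PMR-116 (0.34) and CX-5461 (0.39) and at 12 h with CX-5461 (0.32).

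Among the 12 end-joining genes that rejoin TOP2 breaks, 7 fell and 3 rose after 12 h of PMR-116 in Mv4;11 (2 rose without the vehicle library that stood apart), and 5 fell and 2 rose with CX-5461, beside 43.2% and 31.4% of all genes called. At 12 h the kinase gene PRKDC fell most (-1.22 with PMR-116 and -0.75 with CX-5461) and the ligase gene LIG4 rose (0.90 and 0.43). At 3 h, 3 of the 12 fell with PMR-116, and 1 fell and 1 rose with CX-5461, beside 24.1% and 11.7% of all genes called. The 8 tested genes that set the response to topoisomerase poisons were also counted in Mv4;11. With PMR-116, 2 fell and 1 rose at 3 h, and 3 fell and 1 rose at 12 h. With CX-5461, 1 fell at 3 h, and 2 fell and 1 rose at 12 h. The medians of this list were -0.14 to -0.03 in these comparisons. Of all genes, 24.1% and 43.2% were called with PMR-116 at 3 h and 12 h, and 11.7% and 31.4% with CX-5461. SLFN11, whose loss is known to make cells resistant to such poisons, fell in Mv4;11 in each comparison, by log2 values of -1.25 and -1.03 at 3 h and -2.30 and -1.78 at 12 h (PMR-116 and CX-5461). In KG-1 SLFN11 fell at 3 h with both (-0.21 and -0.27). Of 3 tested genes for other proteins named after topoisomerases, the checkpoint protein gene TOPBP1 fell at 12 h in Mv4;11 (-0.85 and -0.63; with PMR-116, 2 of the 3 fell in place of 1 without the vehicle library that stood apart) and was higher at 12 h of PMR-116 in KG-1 (0.20).

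The compounds were compared with each other at the same dose and time as the difference of their effects, PMR-116 minus CX-5461, for the 8 genes in 4 settings. Only TOP1 at 12 h in Mv4;11 differed, by 0.32 ± 0.08 (adjusted p = 0.0217; 1 of 8 genes, beside 5.11% of all genes), since TOP1 rose by 0.41 with PMR-116 and stood at 0.09 with CX-5461. That call ended without the vehicle library that stood apart (0.28) and without CX-5461 replicate 2 or 3 (0.30 and 0.31). At 3 h in Mv4;11, 0 of the 8 differences passed edgeR's test or DESeq2 (1.34% of all genes), though 3 had an unadjusted p under 0.05. These were TOP1 (0.23, 95% interval 0.07 to 0.39), TOP3A (0.22, 0.05 to 0.40) and TOP3B (0.24, 0.04 to 0.44), all larger with PMR-116. TOP2A differed by 0.11 (-0.07 to 0.29) at 3 h and 0.07 (-0.11 to 0.24) at 12 h in Mv4;11, and TDP1 by -0.07 at both times (-0.28 to 0.14 at each). In KG-1 0 of the 8 passed edgeR's test or DESeq2 at 3 h (0.0107% of all genes; 0 had an unadjusted p under 0.05) or 12 h (0.0483%). At 12 h there, TOP1 differed by 0.25 (0.09 to 0.41, adjusted p = 0.391) and TOP2A by 0.26 (0.09 to 0.44, adjusted p = 0.377), and these 2 had an unadjusted p under 0.05.

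The effects were compared between the times as 12 h minus 3 h. In Mv4;11 with PMR-116, 3 of the 8 genes differed (27.6% of all genes). The effect on TOP2B was higher at 12 h (0.40 ± 0.10, adjusted p = 0.0022; 0.31 without the vehicle library that stood apart), and those on TOP3A (-0.60 ± 0.09, adjusted p = 1.54e-05) and TOP3B (-0.59 ± 0.10, adjusted p = 9.48e-05) were lower, by -0.60 and -0.66 without that library. With CX-5461, 2 differed (16.7% of all genes), TOP2B (0.38 ± 0.10) and TOP3A (-0.43 ± 0.09), while for TOP3B the difference was -0.21 ± 0.10 (adjusted p = 0.181). In KG-1 with PMR-116 TOP2A alone differed (0.44 ± 0.09, adjusted p = 0.00552; 1.69% of all genes), going from -0.16 at 3 h to 0.29 at 12 h. With CX-5461 0 of the 8 were called in KG-1 by edgeR (0.263% of all genes) and 1 had an unadjusted p under 0.05, TOP2A (0.35 ± 0.09, adjusted p = 0.0908), which DESeq2 called. The KG-1 vehicle libraries differed between the times in 3 of the 8 genes (31.6% of all genes; added after seeing the data), with TOP2A higher at 12 h (0.33 ± 0.04) and TOP3B (-0.29 ± 0.06) and TDP2 (-0.14 ± 0.04) lower.

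The effects were compared between the lines as Mv4;11 minus KG-1, in a fit of 23759 genes over all 56 libraries. At 12 h of PMR-116, 3 of the 8 differed (25.4% of all genes), TOP2A (-0.44 ± 0.09, adjusted p = 0.000175), TOP2B (0.48 ± 0.10, adjusted p = 0.00011) and TDP1 (-0.41 ± 0.10, adjusted p = 0.00179). Without replicate 3 of both lines, which removes the library that stood apart, all 3 were still called (-0.45, 0.38 and -0.45). The same 3 differed at 12 h of CX-5461 (16.2% of all genes), by -0.27 ± 0.09, 0.37 ± 0.10 and -0.41 ± 0.10. Of these, TOP2A was not called without replicate 2 (-0.20), with library totals (-0.21) or with no filter (-0.27), and TOP2B not without replicate 1 (0.34) or 4 (0.27). At 3 h of PMR-116, TOP1 (0.31 ± 0.09), TOP3A (0.40 ± 0.12) and TOP3B (0.36 ± 0.11) differed (6.94% of all genes), but each of these calls ended when any 1 replicate number was left out. At 3 h of CX-5461 0 of the 8 were called by edgeR or DESeq2 (3.07% of all genes), and 1 had an unadjusted p under 0.05, TOP1 (0.21 ± 0.09). For TDP1 the difference at 3 h was -0.31 ± 0.10 with PMR-116 (adjusted p = 0.0601) and -0.20 ± 0.10 with CX-5461 (adjusted p = 0.372).

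For each gene, the protein-coding genes with the most alike pattern were sought among 8885 genes with a mean of at least 5 CPM in both lines, by the lower of the Pearson correlations of log2 CPM over the 24 Mv4;11 and the 32 KG-1 libraries. These are descriptions over libraries that share treatment groups. The most alike genes were DCAF6 for TOP1 (lower r 0.81), RPL4 for TOP1MT (0.74), WDR89 for TOP2A (0.88), TLK1 for TOP2B (0.63), BRD2 for TOP3A (0.53), ANAPC2 for TOP3B (0.82), SERBP1 for TDP1 (0.82) and GAR1 for TDP2 (0.78). For TOP1MT the next were RPL32 (0.71), which like RPL4 encodes a ribosomal protein, and SNTB1 (0.71), which does not. For TDP2, whose best match GAR1 is part of nucleolar ribonucleoproteins, the next were ZNF146 (0.78), a zinc finger gene, and RIOK1 (0.77), a kinase of ribosome assembly. TOP3A had the weakest best match of the 8.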

How the data were processed

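Poly(A) RNA of 56 libraries was measured with the Illumina Stranded mRNA Prep, per the labels' protocols. The authors deposited 1 table per line of estimated counts per gene, which are not whole numbers; the submitters' processing notes name Salmon 1.5.2, DESeq2 and GRCh38.p13 without saying what each was used for, and neither the annotation release nor the strand setting is given in the sources used here. 24 columns of the Mv4;11 table match no sample here and were not used.

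Estimated counts were rounded and tested with edgeR 4.0.16 in R 4.3.3 (filterByExpr with a minimum count of 10 and a minimum total of 15, TMM scaling, quasi-likelihood test, the 8 groups of a line in 1 fit, and all 16 groups for differences between the lines), with Benjamini-Hochberg adjustment over all genes tested and a threshold of 0.05. CPM used the TMM-scaled library sizes. Standard errors were taken from the fold change and its F value, and intervals are 95%. The tests were also run on simulated data. DESeq2 1.42.0, other scalings, no filter, other fits and leaving out libraries were tried as alternatives. The 8 genes, the gene lists and the named genes (every member, the genes of each list with the largest called changes, and the 3 genes most alike to each member) were chosen with earlier results of these data known. Positions come from GENCODE 29 on GRCh38 and promoter sequences from RefSeq on GRCh38.p14.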

Additional observations from a re-analysis of the deposited data

Results flagged for a closer look

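In 5 of 64 groups of libraries tested for the 8 genes, 1 library lay far from the others of its group; chance alone gives about 1 in 20. All were in KG-1, where groups had 4 libraries, since groups of 3 were not examined in this way. TOP2A stood at 683 CPM in PMR-116 replicate 3 at 12 h, with the others at 579 to 591 CPM. In the same PMR-116 group at 12 h TOP2B stood at 388 CPM in replicate 4 (others 412 to 415 CPM) and TOP3A at 37.4 CPM in replicate 2 (others 30.7 to 31.4 CPM). TOP1MT stood at 15.3 CPM in replicate 2 of the 3 h vehicle for PMR-116 (others 13.2 to 13.4 CPM). TDP1 stood at 56.8 CPM in replicate 3 of the 12 h vehicle for PMR-116 (others 65.4 to 66.7 CPM).

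15 tested differences of effects between the times or between the lines passed the threshold. Between 12 h and 3 h these were, in Mv4;11, TOP2B (0.40), TOP3A (-0.60) and TOP3B (-0.59) with PMR-116 and TOP2B (0.38) and TOP3A (-0.43) with CX-5461, and, in KG-1, TOP2A with PMR-116 (0.44). Between Mv4;11 and KG-1 they were TOP1 (0.31), TOP3A (0.40) and TOP3B (0.36) at 3 h of PMR-116, TOP2A (-0.44), TOP2B (0.48) and TDP1 (-0.41) at 12 h of PMR-116, and TOP2A (-0.27), TOP2B (0.37) and TDP1 (-0.41) at 12 h of CX-5461. Line and batch cannot be told apart in the last 9.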

How the results depend on the processing

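Of the 24 calls of the 8 genes against vehicle, 15 were kept under every alternative run and 9 were lost under at least 1; 0 changed direction. With library totals in place of TMM, the number of the 8 genes called fell from 5 to 3 in Mv4;11 (12 h of PMR-116) and from 1 to 0 in KG-1 (3 h of PMR-116). With no filter on low counts these were again 3 and 0, the line difference for PMR-116 at 3 h lost all 3 of its genes and gained TDP1 (3 called against 1), and the Mv4;11 vehicles differed between the times in 2 genes in place of 1. Fitting only the groups compared gave 0 in KG-1 at 3 h of PMR-116, and pooling both vehicle groups gave 3, with TOP2A and TOP3B added. RLE scaling gave 5 genes for the KG-1 vehicles between the times in place of 3. DESeq2 gave 5 there, 2 for the Mv4;11 vehicles, and 1 in place of 0 for CX-5461 between the times in KG-1.

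The replicate numbers were not taken to pair the samples. Same-numbered libraries had correlated deviations of -0.01 to 0.11 in Mv4;11 (1 of 12 pairs over 0.1) and 0.02 to 0.24 in KG-1 (9 of 16), and 10 of 12 and 13 of 16 correlated best with their own number. Each treated library had 3 vehicle libraries to match in Mv4;11 and 4 in KG-1, so the numbers may mark a pairing that the main fit leaves out. With the replicate block, 4 genes in place of 2 were called in KG-1 at 12 h of PMR-116, with TOP1MT (-0.23, adjusted p = 0.00943) and TOP3B (0.22, adjusted p = 0.0332) added, 1 in place of 0 for the difference of the compounds at 12 h and for CX-5461 between the times in KG-1, 1 in place of 0 for the line difference at 3 h of CX-5461, and 6 and 2 for the vehicles between the times in KG-1 and Mv4;11.

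Some uncalled values changed sign. With library totals these were, for PMR-116 in Mv4;11, TOP2B at 3 h (0.0206) and TOP3A (0.0578), TOP3B (0.0874) and TDP2 (0.091) at 12 h, and TOP1MT at 12 h of CX-5461 (0.0638). With no filter they were TOP2B (0.0122), TDP2 (0.00233) and TOP1MT (0.0333) in the same comparisons. With pooled vehicles they were TOP3B at 12 h of CX-5461 in Mv4;11 (-0.0141) and, in KG-1, TDP1 (0.0235) and TDP2 (0.00871) at 3 h of CX-5461 and TOP3A at 12 h of PMR-116 (-0.0678).

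Leaving out 1 library at a time gave 3 to 5 called genes for CX-5461 at 3 h and 2 to 4 at 12 h in Mv4;11, 0 to 1 in KG-1 at 3 h of PMR-116, 0 to 1 for the difference of the compounds at 12 h in Mv4;11, 0 to 0 for the line difference at 3 h of PMR-116, and 1 to 2 and 3 to 5 for the vehicles between the times in Mv4;11 and KG-1. It gave ranges across 0 in Mv4;11 for TOP2B at 3 h of PMR-116 (-0.0616 to 0.0313) and TOP1MT at 3 h (-0.119 to 0.0454) and 12 h (-0.0602 to 0.0056) of CX-5461. In KG-1 it did so at 3 h of PMR-116 for TOP1MT (-0.122 to 0.00229), TDP1 (-0.00611 to 0.0886) and TDP2 (-0.0474 to 0.00788), at 3 h of CX-5461 for TOP1MT (-0.108 to 0.0425) and TDP1 (-0.027 to 0.0201), at 12 h of PMR-116 for TOP3A (-0.049 to 0.0543) and TDP1 (-0.0365 to 0.0657), and at 12 h of CX-5461 for TOP1 (-0.00678 to 0.0846), TOP2A (-0.0263 to 0.0707) and TDP2 (-0.0525 to 0.0101).

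The number of all genes called in KG-1 depended on the fit: 1364, 640, 1762 and 473 for PMR-116 and CX-5461 at 3 h and PMR-116 and CX-5461 at 12 h became 2599, 1733, 3198 and 1313 with the replicate block and 2442, 1004, 2896 and 955 with pooled vehicles. For CX-5461 at 3 h and 12 h it was 1105 and 803 with DESeq2, 371 and 268 with no filter, and 332 and 71 with only the groups compared; for PMR-116 at 12 h the last 2 gave 1152 and 911. In Mv4;11 it stayed within 1.5 times.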
